A study of Homo sapiens with 27 samples.

Results

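Baseline expression was described in the untreated cultures of MCF10DCIS.com, the 7 control libraries among the 27 libraries of a study of calcium oxalate crystals on breast cells. MCF10DCIS.com is a human breast epithelial line related to MCF10A, derived from a xenograft lesion of HRAS-transformed cells, and it serves to model cancer that is still inside the breast ducts. It is 1 line, labelled breast premalignant, so the libraries carry no variation between donors. The other 20 libraries are 4 each of cells given 1 of 5 crystal forms at 0.1 mg/mL, after 500000 cells per flask had grown for 6 h. COM crystals are plates of the monohydrate, and the dihydrate came in 4 shapes, which were the dumbbell (DB), the sphere (SPH), the thick bipyramid (TK) and the thin bipyramid (TN). The controls received no crystals, and the labels do not say whether they received anything in their place. Polyadenylated RNA was sequenced from thawed samples.

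The untreated libraries were split by serial number into Controls C, D, E and F (serial numbers 19, 20, 21 and 22) and Controls A, B and G (serial numbers 2, 8 and 23). A serial number orders the deposited libraries, and the labels do not tie it to a culture day, an extraction or a sequencing run. The split was chosen by measured expression, being recognised from it. On the first principal component of all 27 libraries, which held 21.6% of the variance, Controls C to F scored 22.5 to 31.0, and Controls A, B and G scored -23.1, -23.7 and -11.8. Among the untreated libraries, the nearest on either side of this gap were Control C and Control G. The gap was not empty of crystal-treated libraries. DB C (20.6), COM C (10.1), SPH D (-0.89), COM D (-10.9) and the TN libraries (-8.99 to 1.28) lay inside it. Because the values of the untreated libraries chose the groups, every difference between the groups is a description, and none was tested. Nothing in the labels says that the libraries came from separate cultures, so their spread may be technical.

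The cells of this line lie between basal and luminal breast epithelium, and in culture such cells can move along the path of a stratified epithelium. That path runs from attached basal cells, which hold on through hemidesmosomes, to flattened cells that lay down the small proline-rich proteins and involucrin of the cornified envelope. In the integrated stress response the transcription factor ATF4 raises amino acid synthesis and transport when amino acids run short or protein folding fails. In the sterol response cells raise cholesterol synthesis when their membranes hold little cholesterol. Proteases secreted by epithelial cells, among them the collagenase MMP1, cut the matrix around the ducts.

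Levels of 1 gene across libraries are given as CPM, its count scaled to the size of the library with TMM factors. Where genes are set beside each other, levels are the deposited TPM, which are per transcript length. Of 60683 genes in the files, 15392 had enough counts to be measured. A gene was called higher or lower in Controls C to F when the CPM of the 2 groups did not overlap and the fitted difference was at least 1.5-fold. Differences are log2 of Controls C to F over Controls A, B and G, each with the fit's standard error (SE). By this rule 318 genes (2.07% of those measured) were higher and 671 (4.36%) were lower in Controls C to F. Without Control G, 625 were higher and 781 lower, by a rule that is looser with fewer libraries. On log2(TPM + 1) 311 were higher and 261 lower, so the excess of lower genes did not hold on that scale. At 2-fold, 113 (0.734%) were higher and 250 (1.62%) lower. The median difference over all genes measured was 0.01.

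Total counts were 13963705 to 25765493 in Controls C to F and 19251210 to 32537829 in Controls A, B and G. Genes with at least 1 count numbered 22845 to 24603 in Controls C to F and 23447 to 24300 in Controls A, B and G. The mean fragment length, read from the deposited effective lengths, was 236, 198, 213 and 214 nt in Controls C, D, E and F, and 269, 263 and 220 nt in Controls A, B and G, so Control G lay within the range of the 4 others. Mitochondrially encoded genes took 3.49%, 2.56%, 3.75% and 3.73% of the counts in Controls C, D, E and F, against 6.11%, 7.02% and 5.25% in Controls A, B and G. These shares did not overlap, and they move with the same split as every difference below. Their part in those differences was not tested. No pair of libraries agreed within sampling noise, since the chi-square per degree of freedom was 3.05 to 21.3 within Controls C to F, 16.5 to 25.7 within Controls A, B and G and 22.9 to 70.4 between them. Controls C, E and F lay closest to each other, and the lowest value for a pair with Control D was 12.7.

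The line's epithelial label held in all 7 libraries. The basal keratin KRT5 was at 1640 ± 246 TPM and KRT17 at 1594 ± 239 TPM (SD, n = 7 here and for the other values of this paragraph). The simple epithelial keratins KRT18 and KRT8 were nearly as abundant, at 1509 ± 66.5 and 1210 ± 118 TPM, so basal and luminal keratins were present together in these bulk libraries. KRT19, a luminal keratin, was at 2.59 ± 0.819 TPM, and KRT14, the partner of KRT5 in basal cells, at 94.6 ± 27.7 TPM. EPCAM, an epithelial surface adhesion protein, was at 262 ± 22.4 TPM and CDH1, which encodes E-cadherin, at 79.5 ± 8.35 TPM. TP63, the transcription factor of basal epithelium, was at 32.9 ± 5.26 TPM. CDH2, the mesenchymal N-cadherin, was at 2.37 ± 0.275 TPM, while VIM, an intermediate filament of mesenchymal and many cultured epithelial cells, was at 686 ± 67.6 TPM.

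The most abundant transcript of a nuclear gene was S100A2, a calcium-binding protein of basal epithelium, at 12583 ± 2414 TPM, rank 3 among all genes. It ranged widely between libraries, from 10420 to 16618 TPM in Controls C to F and from 10981 to 14300 TPM in Controls A, B and G. Of the 10 genes of highest mean TPM, 6 were mitochondrially encoded (MT-ATP8, MT-CO2, MT-CO1, MT-ND4L, MT-CO3 and MT-ND4), and the others were S100A2, the actin-binding TMSB10, the translation factor EEF1A1 and the ribosomal protein gene RPL41. MT-ATP8 and MT-ND4L overlap their neighbours on the mitochondrial genome and are short, so their TPM is uncertain. Genes of attachment to the basement membrane were high. ITGB4 and ITGA6, the integrin chains of the hemidesmosome, were at 1648 ± 321 and 576 ± 63.2 TPM. The hyaluronan receptor gene CD44 was at 777 ± 93.9 TPM and CD24 at 138 ± 22.4 TPM.

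HRAS, the oncogene that transformed the parent cells, was at 612 ± 102 TPM. Growth factor receptor genes were expressed, with ERBB2 at 62.2 ± 6.27 TPM and EGFR at 26.3 ± 4.61 TPM. ESR1, which encodes the oestrogen receptor, was at 0.499 ± 0.174 TPM, and its target TFF1 had 0 counts in all 7 libraries. PGR, the progesterone receptor gene, was listed at 0 TPM in all 7, from at most 1 count per library. GATA3, a luminal transcription factor, was at 13.4 ± 2.23 TPM. The cell cycle inhibitor gene CDKN2B had 0 counts in all 7 libraries, and CDKN2A had 1 count in Control F and 0 in the 6 others. MCF10A cells are known to lack this locus. A count of 0 allows up to 3 counts, or 0.116 to 0.215 CPM in Controls C to F and 0.0922 to 0.156 CPM in Controls A, B and G, and this limit covers counting error alone. The proliferation marker MKI67 was at 42.4 ± 6.23 TPM.

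Markers of other cell types were low for most lists, and their part in the differences below was not tested. The 9 fibroblast markers summed to 8.30 to 11.6 TPM in Controls C to F and 11.4 to 12.1 TPM in Controls A, B and G, and COL1A2, DCN and LUM were at 0.43 TPM or less in every library. Most of the sum was FAP and COL1A1. FAP was at 3.45 to 4.24 TPM in Controls C to F and 6.09 to 6.18 TPM in Controls A, B and G. COL1A1 was at 3.12 to 6.81 and 4.45 to 5.39 TPM. Of the 3 fibroblast markers measured, 1 was called higher and 1 lower, where 2.07% and 4.36% of all genes were. The 11 leukocyte markers summed to 8.63 to 14.7 TPM in Controls C to F and 13.5 to 17.4 TPM in Controls A, B and G, with CD3D at 0 counts and PTPRC, the common leukocyte antigen, at 1 count in Control B alone. Most of this sum was CD68 and CD14. CD68 was at 4.57 to 9.16 TPM in Controls C to F and 6.21 to 9.81 TPM in Controls A, B and G. CD14 was at 2.65 to 4.73 and 4.88 to 6.55 TPM. Of the 4 leukocyte markers measured, 1 was called lower and none higher. The 7 endothelial markers summed to 0.72 to 2.06 TPM in Controls C to F and 4.18 to 6.75 TPM in Controls A, B and G. Most of the sum in Controls A, B and G was PECAM1, with 0.35 to 1.58 TPM in Controls C to F and 3.79 to 6.47 TPM in Controls A, B and G, while the defining endothelial genes CDH5, VWF and KDR reached at most 0.36 TPM. The 5 adipocyte markers summed to 0.40 to 0.66 TPM in Controls C to F and 0.72 to 1.30 TPM in Controls A, B and G, where most was PLIN1. The 8 hormone-responsive luminal markers summed to 116 to 130 TPM in Controls C to F and 84.5 to 95.3 TPM in Controls A, B and G, of which most was XBP1. Of the 6 of these that were measured XBP1 alone was called, and the median difference was -0.25, or 0.03 on log2(TPM + 1). The 5 erythroid markers reached 0.99 TPM in Controls C to F and 1.19 TPM in Controls A, B and G, with HBB at 0 counts.

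The 13 hepatocyte markers summed to 82.6 to 113 TPM in Controls C to F and 132 to 165 TPM in Controls A, B and G. The members did not share this direction, since of the 5 that were measured 2 were called higher (AHSG and HP, both low) and 1 lower (SERPINA1), with a median difference of 1.40. Over all genes, 2.07% were called higher and 4.36% lower. SERPINA1, which many epithelial lines express, gave most of the sum, at 77.2 to 85.8 TPM in Controls C to F and 129 to 160 TPM in Controls A, B and G. ALB, the albumin gene, was at 1.58, 6.11, 2.06 and 1.19 TPM in Controls C, D, E and F, against 0.45, 0.23 and 1.32 TPM in Controls A, B and G. Control D was the highest of the 7, and without it the groups still overlapped.

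Of the stress lists, the targets of the ATF4 branch of the integrated stress response had the largest median difference between the untreated libraries. Of 29 listed ATF4 and CHOP targets, all measured, 18 were called higher in Controls C to F and 1 lower, where 2.07% and 4.36% of all genes were called. The median difference over the list was 0.75 (quartiles 0.49 and 0.89), against 0.01 over all genes. Without the fold threshold, 23 members were higher with no overlap and 1 was lower, where 12.9% and 12% of all genes were. The list stood apart in each library, with a median deviation from the gene mean of 0.26, 0.37, 0.32 and 0.23 (log2) in Controls C, D, E and F, and of -0.48, -0.41 and -0.36 in Controls A, B and G.

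CHAC1, an enzyme that breaks down glutathione and a target of ATF4 (chromosome 15, 40952962 to 40956519, GRCh38), had the largest difference of the called protein-coding genes at a mean of at least 5 CPM that were higher. It was at 16.6, 20.6, 16.7 and 15.7 CPM in Controls C, D, E and F, against 3.15, 2.90 and 3.12 CPM in Controls A, B and G. The groups were far apart, at a log2 difference of 2.50 (SE 0.13). STC2, a secreted glycoprotein of the stress response (chromosome 5, 173314713 to 173329503), was at 102.5, 123, 117 and 109 CPM in Controls C, D, E and F, against 29.6, 36.1 and 39.8 CPM in Controls A, B and G. Its difference was 1.68 (SE 0.11), with each of the 4 libraries above each of the 3. DDIT3, which encodes the transcription factor CHOP (chromosome 12, 57516588 to 57521737), was at 11.6, 12.03, 12.6 and 8.495 CPM in Controls C, D, E and F, against 4.12, 3.54 and 5.92 CPM in Controls A, B and G. Control F was the lowest and Control G the highest of its group, at a difference of 1.31 (SE 0.19). TRIB3, a pseudokinase that CHOP induces and that feeds back on it (chromosome 20, 362835 to 397559), was at 289, 320.05, 307 and 265 CPM in Controls C, D, E and F, against 145, 126.0 and 128 CPM in Controls A, B and G, a difference of 1.15 (SE 0.09).

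Members with roles in amino acid supply are given as examples, chosen after their values were seen. PSAT1, an enzyme of serine synthesis, was at 272 to 287 CPM in Controls C to F and 117 to 147 CPM in Controls A, B and G, a difference of 1.13 (SE 0.09). ASNS, asparagine synthetase, was at 246, 250.08, 254 and 222 CPM in Controls C, D, E and F, against 145, 152 and 130.4 CPM in Controls A, B and G, a difference of 0.77 (SE 0.08). The transporter genes SLC7A11 (0.59), SLC7A5 (0.77), SLC3A2 (0.82) and SLC6A9 (0.87) and the mitochondrial folate enzyme gene MTHFD2 (0.78) were called higher too. SLC1A4 and GPT2, a neutral amino acid transporter and an alanine aminotransferase, stood outside the list but among the largest differences, at 1.52 (SE 0.14) and 1.23 (SE 0.08), and ADM2, a hormone of the adrenomedullin family, at 1.45 (SE 0.11). ATF4 itself was at 625, 733, 685 and 607 CPM in Controls C, D, E and F, against 489, 430.1 and 496 CPM in Controls A, B and G. Its difference of 0.49 (SE 0.09) did not reach 1.5-fold, though the groups did not overlap. GDF15, a stress cytokine that p53 also induces, was the 1 member called lower, at 43.9 to 60.4 CPM in Controls C to F and 69.9 to 97.8 CPM in Controls A, B and G (-0.74, SE 0.13).

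**Figure D1:**
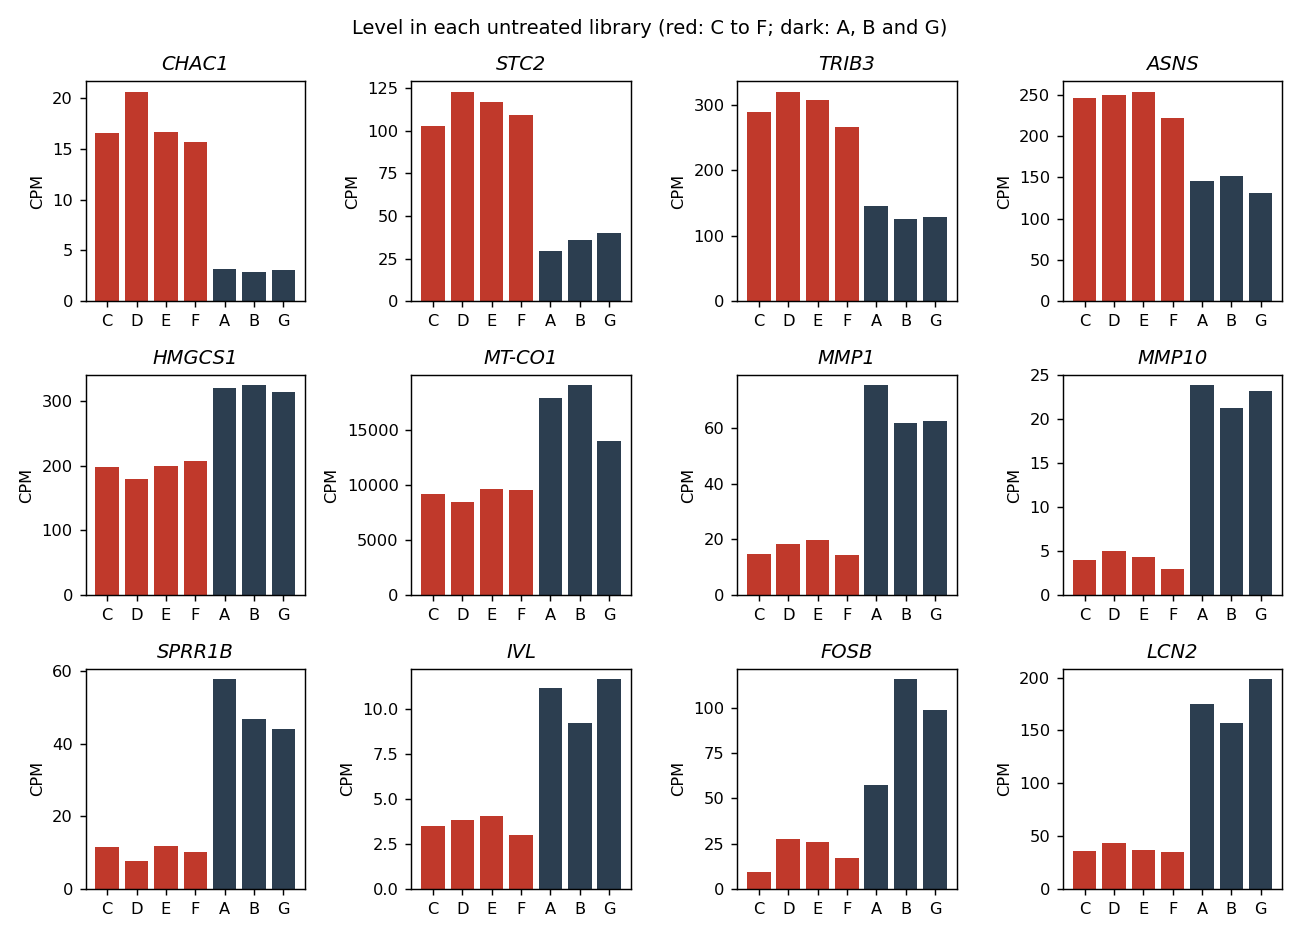
CPM of 12 genes in each untreated library, 1 bar per library, with Controls C to F left of Controls A, B and G and each axis starting at 0. CHAC1, STC2, TRIB3 and ASNS are higher in every library of Controls C to F, and HMGCS1, MT-CO1, MMP1, MMP10, SPRR1B, IVL, FOSB and LCN2 are lower in every one.

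Promoter sequences of 3 of the higher ATF4 targets are shown because each holds the 8 bases TGATGNAA, the core of the composite CEBP and ATF element that ATF4 binds. They are RefSeq sequence on GRCh38.p14, 5′ to 3′ on the gene's strand, with the element in capitals; in CHAC1 the element lies on the opposite strand.
CHAC1 (chr15:40953251-40953280, + strand): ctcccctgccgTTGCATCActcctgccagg
ASNS (chr7:97872458-97872487, - strand): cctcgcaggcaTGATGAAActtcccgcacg
JDP2 (chr14:75427992-75428021, + strand): tatatagccggggcTGATGCAAcccgtccc
Of the 18 ATF4 and CHOP targets called higher, 15 had a promoter in the RefSeq table, and 4 of those (ASNS, CEBPG, CHAC1 and JDP2) held TGATGNAA on either strand within 250 bases before a start. Of all 27305 genes in the table, 3.89% held it by the same count. The starts are those of RefSeq, which gives some genes several, and that of CHAC1 lies inside the gene as the GENCODE coordinates above give it, as do the bases shown. The genes and the motif were chosen after the values were seen. The list was made of ATF4 and CHOP targets, so its share of matches says nothing of the difference between the libraries. A match is a description of the sequence alone. JDP2, a repressor of AP-1, was at 11.7 to 14.9 CPM in Controls C to F and 5.92 to 6.53 CPM in Controls A, B and G, a difference of 1.05 (SE 0.12). CEBPG, a CEBP partner of ATF4, differed by 0.66 (SE 0.08).

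Chaperones of the endoplasmic reticulum did not follow the ATF4 targets. Of 19 measured, 1 was called higher and none lower, where 2.07% and 4.36% of all genes were, and the median difference was -0.01. That gene was XBP1, a transcription factor of the unfolded protein response, which was at 119, 143, 122 and 109 CPM in Controls C, D, E and F, against 89.4, 82.9 and 74.1 CPM in Controls A, B and G, a difference of 0.59 (SE 0.10) that lay at the 1.5-fold threshold itself. SYVN1, a ubiquitin ligase that clears misfolded proteins, was lower with no overlap but under the threshold (-0.51, SE 0.08). HSPA5, the main chaperone of this compartment, was at 685 to 716 CPM in Controls C to F and 845 to 909 CPM in Controls A, B and G. It was lower with no overlap but under the threshold (-0.32, SE 0.07). The part of protein folding in the difference of the ATF4 targets was not tested.

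Heat shock proteins, the cytosolic chaperones, differed for few members. Of 21 measured, none was called higher and 2 were called lower, where 2.07% and 4.36% of all genes were. The median difference was 0.02, but it was -0.02, -0.0035, -0.0089 and -0.05 when Control A, C, F or G was left out, so it has no settled sign. HSPB1, a small heat shock protein (chromosome 7, 76302544 to 76304295), was at 77.0, 93.7, 75.03 and 75.5 CPM in Controls C, D, E and F, against 172, 143 and 163 CPM in Controls A, B and G. Control D was the highest of its group and the groups stayed apart, at -0.99 (SE 0.10). HSPA1A, an inducible HSP70 (chromosome 6, 31815464 to 31817946), was at 68.0 to 81.3 CPM in Controls C to F and 104 to 124 CPM in Controls A, B and G (-0.68, SE 0.09). Its near-identical neighbour HSPA1B was lower by less (-0.54, SE 0.09), and the counts of this pair cannot be separated with certainty. CACYBP, an adaptor of a ubiquitin ligase, had the largest positive value (0.34, SE 0.08). HSP90AA1 was at 3220 to 3411 CPM in Controls C to F and 3215 to 3539 CPM in Controls A, B and G, so this abundant chaperone overlapped between the groups.

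Other stress lists differed little, where 4.36% of all genes were called lower and 2.07% higher. No NRF2 target of 18 was called (median 0.06), and HMOX1, haem oxygenase, was at 2.19 to 3.72 CPM in Controls C to F and 2.86 to 3.64 CPM in Controls A, B and G. TXNRD1, a thioredoxin reductase, was higher with no overlap but under the threshold (0.42, SE 0.08), and AKR1C1, an aldo-keto reductase with close paralogs, lower (-0.34, SE 0.09). Of 19 p53 targets, 3 were called lower and none higher (median -0.10, and 0.04 on log2(TPM + 1)): TP53INP1 (-0.93, SE 0.14), SPATA18 (-0.64, SE 0.12) and ZMAT3 (-0.59). Of 24 hypoxia and glycolysis genes, 1 was called on each side (median 0.02), the lipase inhibitor ANGPTL4 lower (-0.97, SE 0.20) and ANKRD37 higher (0.79, SE 0.27), which was at 2.52 to 5.39 CPM in Controls C to F and 1.77 to 2.41 CPM in Controls A, B and G.

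Of 24 measured genes of cholesterol synthesis and uptake, 1 was called lower and none higher, a share of 4.17% that is near the 4.36% of all genes called lower. The median difference was -0.20. Without the fold threshold 10 were lower with no overlap, where 12% of all genes were, and none was higher. HMGCS1, which makes HMG-CoA at the start of the mevalonate pathway (chromosome 5, 43289395 to 43313512), was at 198, 179, 201 and 207 CPM in Controls C, D, E and F, against 321, 325 and 314 CPM in Controls A, B and G. Its groups were tight and apart, at -0.70 (SE 0.07). MSMO1, a demethylase late in the pathway, was at 123 to 134 CPM in Controls C to F and 169 to 207 CPM in Controls A, B and G (-0.57, SE 0.09). HSD17B7 and SC5D, later enzymes, were lower by less, at -0.47 (SE 0.08) and -0.41 (SE 0.10). Of 12 fatty acid synthesis genes none was called (median -0.10, and 0.03 on log2(TPM + 1)). FASN, fatty acid synthase, was lower with no overlap, at 1517 to 1824 CPM in Controls C to F and 2265 to 2459 CPM in Controls A, B and G (-0.45, SE 0.08), and the desaturase gene SCD by -0.28 (SE 0.07). On the log2(TPM + 1) scale the cholesterol list's median was -0.05, while the median of all genes moved to 0.09.

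Several differentiation genes were lower in Controls C to F. Of 25 listed genes of the cornified envelope and keratinocyte differentiation, 15 were measured. Of these 7 were called lower and 1 higher, where 4.36% and 2.07% of all genes were. The median difference was -0.76 (quartiles -1.57 and -0.19). LORICRIN, KRT1 and RPTN, genes of the outermost epidermis, had no counts in any of the 7 libraries. In these bulk libraries, fewer cells that express such a gene and less RNA per cell cannot be told apart. SPRR1B, a small proline-rich protein that is cross-linked into the envelope (chromosome 1, 153031202 to 153032900), was at 11.5, 7.65, 11.9 and 10.3 CPM in Controls C, D, E and F, against 57.9, 46.9 and 44.2 CPM in Controls A, B and G. Every one of the 3 was several times any of the 4, at -2.26 (SE 0.14). IVL, involucrin, an early envelope protein (chromosome 1, 152908545 to 152911886), was at 3.52, 3.86, 4.05 and 3.02 CPM in Controls C, D, E and F, against 11.2, 9.26 and 11.7 CPM in Controls A, B and G (-1.58, SE 0.15). SPRR3 was at 0.427 to 1.02 CPM in Controls C to F and 2.18 to 3.89 CPM in Controls A, B and G (-1.94, SE 0.33), a low gene with a wide error. SPRR2A was at 6.85 to 8.38 CPM in Controls C to F and 20.2 to 28.1 CPM in Controls A, B and G (-1.56, SE 0.13), and its close paralogs make the value uncertain.

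The called list also held SPRR1A (-1.61), SPRR2D (-1.37, uncertain as a paralog of SPRR2A) and the matrix protein gene ECM1 (-0.76) among the lower genes. CALML5, a calmodulin-like protein of the epidermis, was the 1 gene called higher (1.01). TGM1, the transglutaminase that cross-links the envelope, overlapped between groups at 0.944 to 1.68 CPM in Controls C to F and 0.886 to 1.51 CPM in Controls A, B and G. In the list of epidermal differentiation transcription factors, 15 were measured. Of these 1 (6.67%) was called lower and none higher, where 4.36% and 2.07% of all genes were. The median was -0.20, and 0.02 on log2(TPM + 1). NOTCH3, a receptor of the Notch pathway that is placed in this list, was at 25.3 to 27.5 CPM in Controls C to F and 46.9 to 49.6 CPM in Controls A, B and G (-0.86, SE 0.08). PRDM1, a repressor that marks terminal cells, was lower under the threshold (-0.52, SE 0.14).

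Of 9 basal and stress keratins, KRT14 alone was called higher and KRT81, KRT15 and KRT6A lower, where 2.07% and 4.36% of all genes were. The median difference of the 9 was -0.20. KRT14 (chromosome 17, 41582279 to 41586921) was at 87.4, 119, 90.3 and 83.9 CPM in Controls C, D, E and F, against 63.1, 48.4 and 64.8 CPM in Controls A, B and G, a difference of 0.69 (SE 0.14). KRT5, its partner, was higher with no overlap but by less (0.32, SE 0.09). KRT81, a hair keratin found in breast cell lines (chromosome 12, 52285913 to 52291534), was at 396, 487, 375 and 335 CPM in Controls C, D, E and F, against 1067, 784 and 1207 CPM in Controls A, B and G (-1.36, SE 0.15). KRT15, a basal keratin, was at 2503 to 2987 CPM in Controls C to F and 3609 to 4536 CPM in Controls A, B and G (-0.65, SE 0.10). None of the 5 luminal keratins was called, and the median was -0.22. KRT8 and KRT18 overlapped between the groups, with differences of -0.29 (SE 0.10) and -0.11 (SE 0.09). Genes of the hemidesmosome and basement membrane were called lower in 3 of 14 cases and higher in none (median -0.24), where 4.36% and 2.07% of all genes were. LAMA3 and LAMB3, chains of laminin-332, were lower, with differences of -0.70 (SE 0.10) and -0.64 (SE 0.12), and COL17A1, a hemidesmosome collagen, differed by -0.64. Of 24 measured genes of epithelial junctions 1 was called, the tight junction gene CLDN4 (-0.74, SE 0.10), and CDH1 differed by -0.08 (SE 0.07).

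Of 30 listed matrix proteases and their inhibitors, 27 were measured, 12 were called lower and none higher, 15 were not called, and the median difference was -0.46. Over all genes, 4.36% were called lower and 2.07% higher. Without the fold threshold 16 were lower with no overlap and 2 higher, where 12% and 12.9% of all genes were. MMP10, stromelysin-2 (chromosome 11, 102770503 to 102780628), was at 4.002, 5.03, 4.38 and 2.98 CPM in Controls C, D, E and F, against 23.8, 21.3 and 23.2 CPM in Controls A, B and G. The 3 agreed closely, and the difference was -2.51 (SE 0.15). MMP1, interstitial collagenase (chromosome 11, 102789920 to 102798160), was at 14.7, 18.2, 19.9 and 14.2 CPM in Controls C, D, E and F, against 75.2, 61.8 and 62.5 CPM in Controls A, B and G (-2.0, SE 0.13). SERPINB2, an inhibitor of urokinase (chromosome 18, 63871692 to 63903890), was at 7.21 to 10.7 CPM in Controls C to F and 33.4 to 36.1 CPM in Controls A, B and G (-1.96, SE 0.12). MMP28, an epithelial metalloprotease, was at 5.82 to 8.31 CPM in Controls C to F and 16.02 to 26.1 CPM in Controls A, B and G (-1.77, SE 0.18).

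Other members of the list are given here, named after their values were seen. PLAT, tissue plasminogen activator, was called lower (-0.65, SE 0.12). PLAU, urokinase, was at 112 to 132 CPM in Controls C to F and 169.6 to 175 CPM in Controls A, B and G (-0.47, SE 0.08), under the threshold. TIMP3, an inhibitor bound to the matrix, was called lower (-0.81, SE 0.11). MMP9, a gelatinase, was low throughout, at 0.453 to 1.19 CPM in Controls C to F and 2.12 to 2.23 CPM in Controls A, B and G (-1.63, SE 0.32). MMP14, a membrane collagenase, overlapped, at 219 to 257 CPM in Controls C to F and 251 to 303 CPM in Controls A, B and G. ST14, matriptase, and the sheddases ADAM10 and ADAM17 were not called, at 0.10, 0.12 and 0.19.

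Promoters of 3 genes lower in Controls C to F are shown because they hold the 7 bases TGANTCA within 250 bases before the start. This pattern is looser than the usual site of AP-1 dimers of FOS and JUN proteins, which has C or G at N. The match in MMP10 and the later match in SPRR1B have A there, and the counts given here take any base at N. The promoters are RefSeq sequence on GRCh38.p14, 5′ to 3′ on the gene's strand, with each match in capitals.
SPRR1B (chr1:153031058-153031197, + strand): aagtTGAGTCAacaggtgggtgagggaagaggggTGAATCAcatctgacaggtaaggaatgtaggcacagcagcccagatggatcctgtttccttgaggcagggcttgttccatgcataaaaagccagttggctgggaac
IVL (chr1:152908401-152908540, + strand): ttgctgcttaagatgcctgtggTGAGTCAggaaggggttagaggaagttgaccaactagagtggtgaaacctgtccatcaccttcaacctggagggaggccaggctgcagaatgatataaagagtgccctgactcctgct
MMP10 (chr11:102780634-102780773, - strand): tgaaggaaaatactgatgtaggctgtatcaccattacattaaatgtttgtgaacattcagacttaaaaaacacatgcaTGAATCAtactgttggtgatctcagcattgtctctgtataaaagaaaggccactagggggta
Of the 19 cornified envelope and protease genes called lower, 12 had a promoter in the table, and 9 of those held TGANTCA on either strand (ECM1, IVL, MMP10, MMP7, SERPINB2, SPRR1A, SPRR1B, SPRR2A and SPRR3). Of all 27305 genes in the table, 8.06% held it by the same count. The genes and the motif were chosen after the values were seen, and a match is a description of the sequence alone.

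Genes of AP-1 itself and other immediate early genes, which cells raise within minutes of a stimulus, were lower for a few members. Of 19 measured, 4 were called lower and none higher (median -0.17), where 4.36% and 2.07% of all genes were. FOSB (chromosome 19, 45467995 to 45475179) was at 9.07, 27.5, 25.9 and 16.9 CPM in Controls C, D, E and F, against 57.3, 116 and 98.8 CPM in Controls A, B and G (-2.21, SE 0.31). The libraries of each group differed by more than for the proteases, with Control C lowest of all. FOS was at 51.8, 96.3, 86.5 and 58.1 CPM in Controls C, D, E and F, against 148, 180.1 and 161 CPM in Controls A, B and G (-1.16, SE 0.18). DUSP1, a phosphatase that ends MAP kinase signals, and NR4A1, a nuclear receptor, were lower, with differences of -1.23 (SE 0.21) and -0.99 (SE 0.11). JUN was under the threshold (-0.54), and EGR1, JUNB and FOSL1 differed by -0.10, -0.13 and -0.17. The list was not lower as a whole in every library, since its median deviation was -0.19, -0.02, 0.04 and -0.27 in Controls C, D, E and F, against 0.14, -0.01 and 0.19 in Controls A, B and G.

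Inflammatory and antimicrobial genes were mixed, where 4.36% of all genes were called lower and 2.07% higher. Of 19 measured NF-kB targets and cytokines, 4 were called lower (IL1B, NFKBIZ, CSF2 and CXCL2) and none higher, with a median of -0.04. IL1B, which encodes interleukin-1 beta, was at 70.9, 78.9, 85.9 and 62.4 CPM in Controls C, D, E and F, against 139, 124 and 167 CPM in Controls A, B and G (-0.95, SE 0.12). NFKBIZ, a nuclear IkB protein, was at 16.4 to 21.5 CPM in Controls C to F and 32.0 to 40.1 CPM in Controls A, B and G (-0.94, SE 0.12). CXCL8, ICAM1 and SOD2 were not called, at -0.24, 0.23 and 0.34. Of 8 measured antimicrobial genes, 3 were called lower and 1 higher. LCN2, the iron-trapping lipocalin (chromosome 9, 128149071 to 128153455), was at 35.9, 43.2, 37.0 and 35.3 CPM in Controls C, D, E and F, against 175, 157 and 199 CPM in Controls A, B and G (-2.23, SE 0.10). SLPI, a secreted protease inhibitor, and RNASE7 differed by -0.77 and -0.64. S100A8 was the gene called higher, at 2.76 to 3.86 CPM in Controls C to F and 1.13 to 1.77 CPM in Controls A, B and G (1.12, SE 0.23). None of 18 measured interferon-stimulated genes was called (median -0.12).

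**Figure D2:**
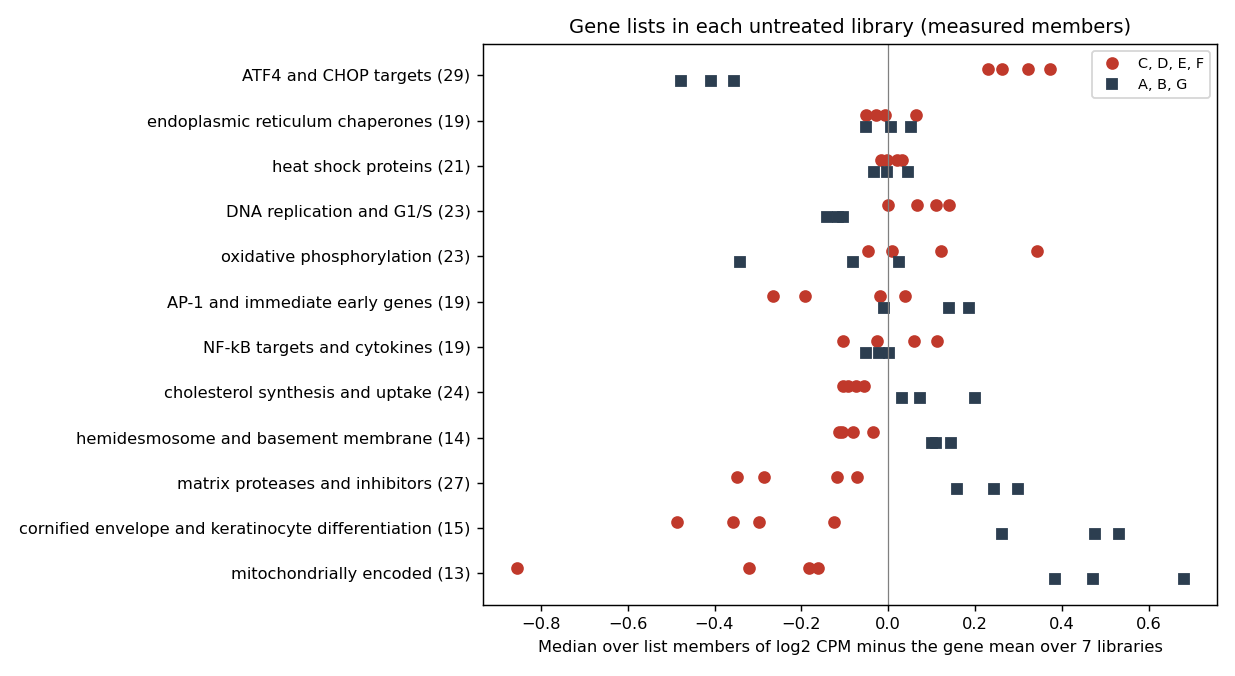
Median over the measured members of 12 gene lists of log2 CPM minus the gene's mean over the 7 untreated libraries, 1 point per library (number of members in brackets). ATF4 and CHOP targets lie at 0.23 to 0.37 in Controls C to F and at -0.48 to -0.36 in Controls A, B and G, heat shock proteins and endoplasmic reticulum chaperones lie near 0 in both, and differentiation and protease genes lie lower in Controls C to F.

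No proliferation gene of either list was called, where 2.07% of all genes were called higher and 4.36% lower. Of 23 cell division genes, 9 were higher with no overlap, where 12.9% of all genes were, none was lower, and the median was 0.13. PRC1, a spindle midzone protein, differed by 0.28 (SE 0.08) and BUB1B, a mitotic checkpoint kinase, by 0.25 (SE 0.09). Of 23 DNA replication and G1/S genes none was called, 11 were higher and none lower with no overlap, and the median was 0.19. MCM7, a subunit of the replicative helicase, was at 289 to 353 CPM in Controls C to F and 224 to 243 CPM in Controls A, B and G (0.45, SE 0.08), and GINS4, a helicase partner, differed by 0.40 (SE 0.11). MKI67 overlapped, at 297 to 401 CPM in Controls C to F and 279 to 399.9 CPM in Controls A, B and G. None of 17 ERK feedback genes and growth factor ligands was called (median -0.03), with DUSP4 at -0.46 (SE 0.07) and EPHA4 at 0.37 (SE 0.10). Of 22 measured mesenchymal and TGF-beta genes, 3 were called lower and none higher, where 4.36% and 2.07% of all genes were. The median of this list was -0.08, and 0.01 on log2(TPM + 1). The 3 were TGFBI (-1.89, SE 0.15), PMEPA1 (-0.75, SE 0.10) and LTBP2 (-0.64). TGFBI, a matrix protein induced by TGF-beta, was at 2.98 to 4.31 CPM in Controls C to F and 12.4 to 15.8 CPM in Controls A, B and G.

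Several of the largest differences fell outside these lists. AC011479.5, which had no match in the annotation used and is given by its name in the files, was at 28.1, 89.4, 40.3 and 28.8 CPM in Controls C, D, E and F, against 2.74, 1.33 and 2.23 CPM in Controls A, B and G (4.44, SE 0.46). Its groups were far apart, with Control D above the others of its group. PSCA, a surface protein of prostate and other epithelia (chromosome 8, 142670308 to 142682724), had the most negative difference of the genes named, at 5.55, 8.16, 6.24 and 5.10 CPM in Controls C, D, E and F, against 55.6, 48.2 and 47.7 CPM in Controls A, B and G (-3.04, SE 0.14). PECAM1, an adhesion protein of endothelium and platelets, was at 1.97 to 3.52 CPM in Controls C to F and 12.8 to 14.1 CPM in Controls A, B and G (-2.45, SE 0.18). TCN1, a vitamin B12 carrier, differed by -2.32 (SE 0.11), CP, the copper oxidase ceruloplasmin, by -2.30 (SE 0.18), TMPRSS4, a transmembrane serine protease, by -2.21 (SE 0.14) and DHRS9, a retinol dehydrogenase, by -2.20 (SE 0.17). MUC1, a membrane mucin, was at 1.46 to 2.52 CPM in Controls C to F and 3.90 to 5.68 CPM in Controls A, B and G (-1.30, SE 0.22). Among the higher genes ABCC2, a drug and bilirubin exporter, was at 20.04 to 24.9 CPM in Controls C to F and 9.01 to 11.4 CPM in Controls A, B and G (1.19, SE 0.12). TMEM238 had an uneven gain, at 7.26, 27.6, 14.7 and 5.13 CPM in Controls C, D, E and F, against 2.96, 2.29 and 5.09 CPM in Controls A, B and G (1.98, SE 0.52). AC087632.2 (1.82, SE 0.53), which spans neighbouring genes, shares reads with them and is uncertain.

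**Figure D3:**
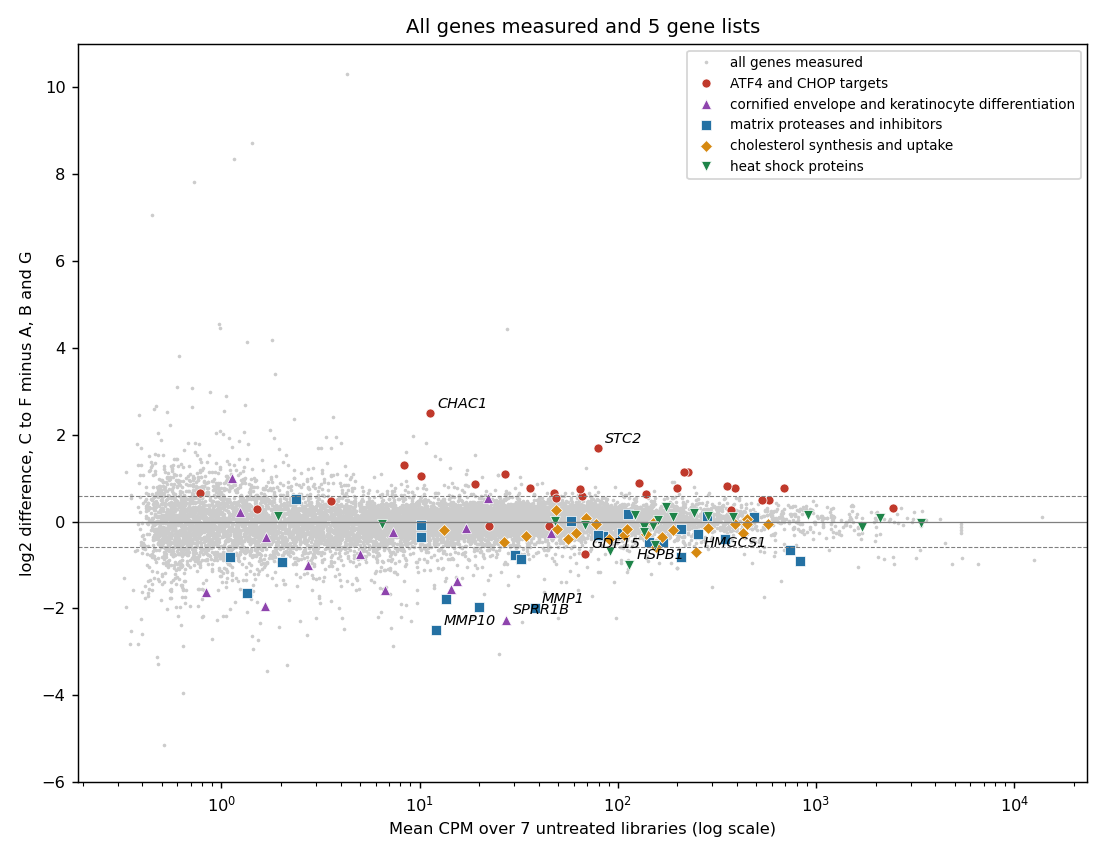
Log2 difference of Controls C to F minus Controls A, B and G against mean CPM over the 7 untreated libraries (log scale), 1 point per measured gene, with 5 gene lists in colour and dashed lines at 1.5-fold. CHAC1 (2.50) and STC2 (1.68) lie above all other listed genes, MMP10 (-2.51) and SPRR1B (-2.26) below, and the grey points beyond 4 in size are, but for 1, genes of under 10 CPM.

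Signs of the RNA and of the library moved with the same split. Of 13 mitochondrially encoded genes 11 were called lower, where 4.36% of all genes were. With no overlap 12 were lower, where 12% of all genes were, and none was higher, and the median was -0.86. MT-CO1, a subunit of cytochrome c oxidase, was at 9190 to 9613 CPM in Controls C, E and F, 8440 in Control D, and 17875, 19025 and 13967 CPM in Controls A, B and G (-0.88, SE 0.11). MT-ND1 and MT-ND4, subunits of complex I, were lower, with differences of -1.05 (SE 0.15) and -0.98 (SE 0.15). Nuclear genes of oxidative phosphorylation did not follow, as none of 23 was called and their median was 0.27. NDUFB2 and UQCRQ, subunits of complexes I and III, were at 0.50 (SE 0.17) and 0.44 (SE 0.15), and both overlapped. No cytosolic ribosomal protein gene of 24 was called or free of overlap (median 0.15), with RPS29 at 0.41 (SE 0.14) and RPL35 at 0.30 (SE 0.13).

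MALAT1, a long nuclear RNA, was at 280.5, 303, 242 and 270.5 CPM in Controls C, D, E and F, against 893, 1178 and 678 CPM in Controls A, B and G (-1.74, SE 0.15). It was the 1 of 9 measured nuclear noncoding RNAs called lower, where 4.36% of all genes were, and none was called higher. NEAT1 overlapped (-0.61, SE 0.19). Of 7 measured replication histone genes, whose transcripts mostly lack poly(A) tails, 2 were called lower, where 4.36% of all genes were. These were H2BC5 (-0.60, SE 0.16) and H2BC4 (-0.84). With protein-coding genes in 5 equal classes of transcript length, the median difference was 0.10 in the shortest class and -0.04 in the longest, and over 5 classes of GC content it was -0.03 to 0.05. The part of these properties in the listed differences was not tested.

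The programmes also differed in how steady they were within each group. Over all genes the median SD of log2 CPM was 0.19 over the 7 libraries, 0.14 within Controls C to F and 0.16 within Controls A, B and G. ATF4 and CHOP targets had 0.42 over the 7, but 0.13 within Controls C to F and 0.16 within Controls A, B and G, so within a group they varied about as much as the median gene. Differentiation genes had 0.43 over the 7, 0.24 within Controls C to F and 0.21 within Controls A, B and G, and proteases 0.30, 0.17 and 0.15. Mitochondrially encoded genes had 0.57, 0.32 and 0.21, the first with Control D apart. Heat shock proteins varied less, at 0.14, 0.08 and 0.08, and cholesterol genes were at 0.17, 0.09 and 0.13. Of genes with at least 10 CPM, PTGR2, MAP3K3, NPLOC4 and the cell cycle phosphatase CDC25B were among those of smallest SD. CDC25B was at 92.2 to 93.3 CPM in Controls C to F and 89.8 to 95.1 CPM in Controls A, B and G.

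Control D stood somewhat apart within its group. On the second principal component of the 7 untreated libraries (19.1% of the variance) Control D scored 33.1 and the rest of its group -21.6 to -13.0, while the first component (39.3%) placed Controls C to F at 15.1 to 33.6 and Controls A, B and G at -35.6 to -23.1. Relative to Controls C, E and F, Control D had a median difference of 0.20 in the shortest class of transcripts and -0.18 in the longest, beside its shortest fragment length.

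Differences in the direction of the untreated split could be read in the crystal-treated libraries. These libraries entered the same principal component and therefore add values and no test. Place on that component also decided which forms were used, so agreement with the untreated split is in part built in. COM C, DB C and SPH C (serial numbers 12, 13 and 14) were set against the mean of libraries A, B and D of the same form, 1 value per form with no error. TN C is left apart because its place on the component (1.28) is near that of the other TN libraries, and all TK libraries have serial numbers 15 to 18. Of the 318 genes higher in Controls C to F, 266 were positive in COM, 292 in DB and 296 in SPH, and 232 (73.0%) in all 3 forms, against 25.9% of all measured genes. Of the 671 lower genes, 602, 597 and 612 were negative in COM, DB and SPH, and 531 (79.1%) in all 3, against 22.6% of all. In TN, the form left apart, 165 of the 318 (51.9%) were positive, against 49.3% of all measured genes. Of the 671, 567 (84.5%) were negative there, against 50.7% of all.

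The lists differed in their medians in these 3 forms. ATF4 and CHOP targets had medians of 0.39, 0.33 and 0.69 in COM, DB and SPH, against 0.75 in the untreated split. CHAC1 was at 0.31, 0.32 and 0.62, TRIB3 at 0.60, 0.23 and 1.02, STC2 at 0.64, 0.73 and 1.48 and DDIT3 at 0.88, 1.33 and 1.72. Differentiation genes had medians of -0.73, -1.24 and -0.50 and proteases of -0.69, -0.81 and -0.45. PSCA was at -2.99, -3.45 and -3.16, near its untreated value. Cholesterol genes had medians of -0.06, 0.33 and -0.19 and did not share a direction, and HMGCS1 was at -0.27, 0.77 and -0.66. Heat shock proteins had 0.03, 0.10 and -0.31, and AP-1 and immediate early genes -0.08, 0.05 and 0.12. Mitochondrially encoded genes had -0.15, -1.35 and -0.57.

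**Figure D4:**
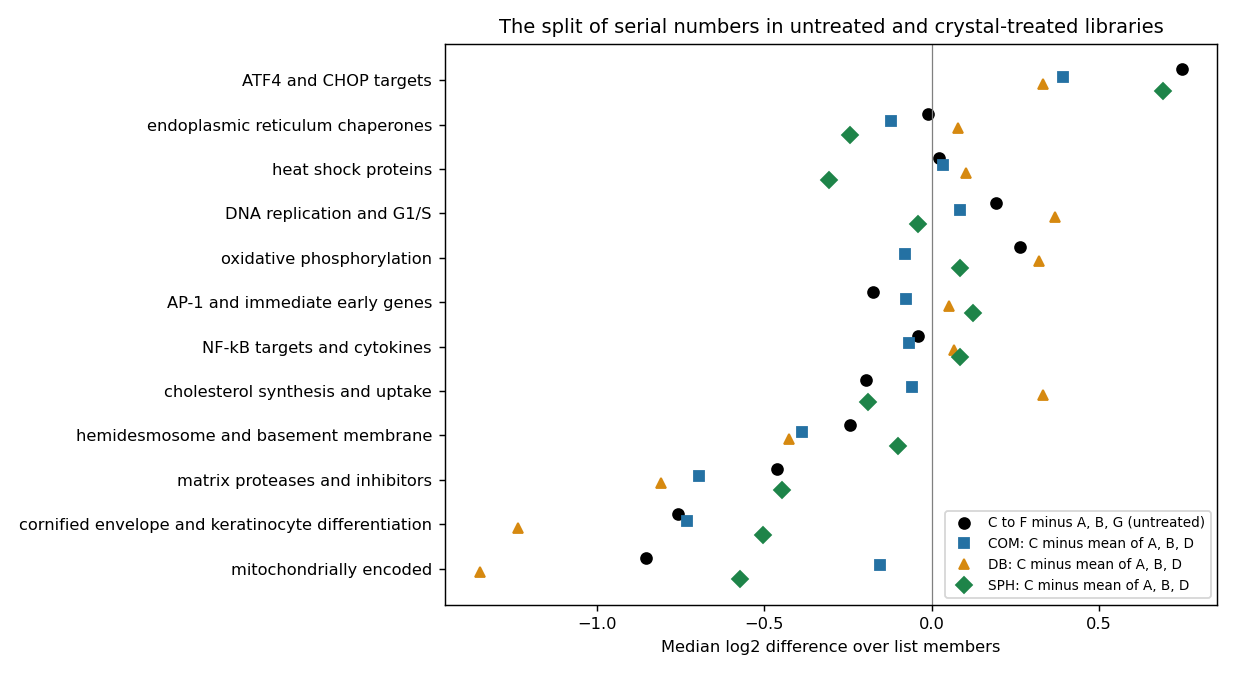
Median log2 difference over the measured members of 12 gene lists, for untreated Controls C to F minus Controls A, B and G (circles) and for library C minus the mean of libraries A, B and D within COM (squares), DB (triangles) and SPH (diamonds). ATF4 targets lie right of 0 and protease, differentiation and mitochondrial genes left of 0 in all 4, while cholesterol and heat shock genes lie on both sides.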

How the data were processed

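Each deposited table holds, for 1 library, RSEM expected counts, TPM, lengths and effective lengths of all genes, per the file headers. TPM values are the authors' and were used for levels between genes. Bowtie2, RSEM, Trim Galore and the build GRCh38 are named, without versions, in the submitters' processing notes. No annotation release or strand setting is given in the sources used. RSEM splits reads that fit several genes, so paralogs and overlapping genes are uncertain.

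Expected counts were rounded to whole numbers and analysed in R 4.3.3 with edgeR 4.0.16 (expression filter, TMM, quasi-likelihood fit over the 7 untreated libraries) for log2 differences and SE. The script was tested on simulated data. No p-value is given, because expression chose the groups. Alternatives used other scalings, no filter, effective length offsets, DESeq2 1.42.0, log2(TPM + 1), other fold thresholds and each library left out.

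The groups, the 36 gene lists and the other choices were made with earlier results of these data known. Named genes are the 10 largest called differences in each direction among protein-coding genes of at least 5 CPM, the 4 (main lists) or 2 (other lists) largest members of at least 1 CPM, a panel for the line, the 10 genes of highest TPM, and the 5 genes of largest and smallest SD at 10 CPM or more. Some genes that this rule names are not reported here, and other names were chosen after their values were seen. Coordinates are GENCODE 29 on GRCh38, matched by identifier for 15241 of 15392 genes.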

Additional observations from a re-analysis of the deposited data

Results flagged for a closer look

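In 11 of the 122 named genes, 1 library stood apart from the rest of Controls C to F, by a gap to the nearest other library that was large for the group's whole range. For a single gene, chance gives this in about 1 in 20 groups, or 5%. The 122 genes share the same libraries and were not drawn at random, so their count cannot be set against that share. In 8 of the 11 the library was Control D. Control D had the highest CPM of its group for HSPB1 (93.7), KRT8 (1789) and KRT18 (1642), and the lowest for SPATA18 (8.38), EPHA4 (25.5), TP63 (97.9), MT-ND4 (3286) and MT-CO2 (2241). Control D also had the shortest fragment length (198 nt) and the smallest total count of the 7 libraries; their part in these values was not tested. Control E was highest for IRF9 (7.10) and H2BC5 (5.31), and Control F lowest for TMPRSS4 (1.96).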

How the results depend on the processing

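The 318 higher and 671 lower genes became 631 and 1114 with no expression filter, 1990 and 1842 with no fold threshold and 113 and 250 at 2-fold. On log2(TPM + 1) they were 311, of which 154 were among the 318, and 261, of which 242 were among the 671. Higher genes numbered 625 against Controls A and B alone, which is the same fit as leaving out Control G. Leaving out each library in turn gave 347 to 625 higher and 721 to 918 lower genes. A call needs no overlap over the libraries kept, so every omission loosens the rule and can raise the counts by itself. Over the same omissions the medians ran from 0.68 to 0.75 for ATF4 and CHOP targets (lowest without Control D), -0.28 to -0.10 for AP-1 genes, -0.24 to -0.19 for cholesterol genes, -0.85 to -0.62 for differentiation genes, -0.49 to -0.36 for proteases and -0.0545 (without Control G) to 0.0410 (without Control D) for heat shock proteins. The heat shock median was 0.0535 on plain library totals, 0.107 on log2(TPM + 1) and -0.0545 against Controls A and B, so its sign is not settled. On log2(TPM + 1), which moved the median of all genes to 0.09, the cholesterol median was -0.0519 and the differentiation median -0.50. Among medians larger than the list's own spread between libraries of a group, 5 changed sign there: p53 targets (0.0377), fatty acid synthesis (0.0331), epidermal transcription factors (0.0173), mesenchymal genes (0.0137) and hormone-responsive luminal markers (0.0331). Changes of sign in smaller medians were not counted. The cause was not tested. Of 1708 values of named genes under the alternatives, 1619 moved by less than the spread between libraries, 89 by more, and 0 changed the sign of a called difference. These values count the fit without Control G under both of its names. Of 34 panel genes, 20 changed rank by over 1.5 times between TPM and CPM. No paired analysis was possible because the 2 groups of untreated libraries share no replicate letter. Low genes (SPRR3, MMP9, SPRR1A) have wide errors at these depths. The errors of MICOS10-NBL1 (SE 0.96) and RGPD5 (SE 0.78), at higher CPM, are wider than that of SPRR3 (SE 0.33).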

Other observations

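Some genes of large spread are read through several gene models. MICOS10-NBL1 was at 21.2, 32.0, 28.4 and 22.2 CPM in Controls C, D, E and F, against 0, 0.564 and 28.4 CPM in Controls A, B and G, so Control G lay with Controls C to F. RGPD5, 1 of several near-identical copies, was at 2.40, 13.1, 1.66 and 17.4 CPM in Controls C, D, E and F, against 1.35, 13.6 and 21.1 CPM in Controls A, B and G, with no order by group. Hepatocyte markers beside ALB were also highest in Control D: APOA1 was at 0.48, 2.42, 0.45 and 0.21 TPM in Controls C, D, E and F, against 0.05, 0 and 0.43 TPM in Controls A, B and G, and TF at 0.82, 4.14, 0.30 and 0.30 TPM in Controls C, D, E and F, against 0.35, 0.14 and 1.15 TPM in Controls A, B and G.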
